A study of Mus musculus with 18 samples.

Results

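The RNA of satellite cells, which are muscle stem cells, was measured in cells sorted from uninjured hind-limb muscle of pregnant mice and set against that of virgin mice. The comparison rests on 3 libraries of non-activated cells from pregnant mice and 3 libraries of non-activated cells from mice that were not pregnant, which together are 6 of the 18 libraries of the study. These libraries were chosen by their labels alone. All came from C57BL/6 mice, and virgin is the word of the study's design text for its non-pregnant mice. The sort kept mononuclear cells that carried VCAM1 and lacked CD31, CD45 and Sca1. Both groups were made into libraries with the SMARTer stranded total RNA kit after depletion of ribosomal RNA, so strain, sort and kit were shared and pregnancy was the labelled difference. The stage of pregnancy is not given in the labels, and the age of 8.5 to 9 months is stated for the mice whose muscles were injured. The other 12 libraries, 6 from pregnant mice and 6 from mice that were not pregnant, hold satellite cells called activated, taken after the muscle had been pierced with a 23-gauge needle, and were made with the TruSeq kit after poly-A selection. No label says that the libraries of a group came from separate animals, so every p-value below measures the spread between libraries, part of which may be technical.

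Satellite cells lie between the muscle fibre and its basal lamina, where they rest outside the cell cycle until the muscle is damaged. The transcription factor PAX7 marks them at rest, and MYOD1, the factor that commits a cell to the muscle lineage, appears as they leave that state. Release of the cells from muscle by mincing and enzyme digestion is itself known to switch on early response genes such as Fos and Jun within the time of the isolation. In pregnancy the blood levels of oestrogen, progesterone, prolactin-like hormones and glucocorticoids rise, and muscle carries receptors for several of them.

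The table held numeric values for 10792 of its 47729 listed genes, and all of these code for protein. Library totals lay between 15066225 and 21626336 counts in the pregnant group and between 17903943 and 24336842 counts in the non-pregnant group. The libraries of pregnant mice were less alike: Pearson correlations across genes between 2 libraries were 0.873 to 0.891 within the pregnant group, 0.899 to 0.949 within the non-pregnant group and 0.850 to 0.926 between the groups. Pregnant library 2 and non-pregnant library 1 stood apart along the first principal component, which held 33.3% of the variance, and they had the most genes at 0 (642 and 590, against 49 to 415 in the other 4). By their muscle genes the cells fit their name: Pax7 had 11240.5 to 20831 normalized counts, Myf5 had 1188 to 2193 and Des, the muscle intermediate filament, had 17133 to 33411. Ptprc and Ly6a, which encode the CD45 and Sca1 sorted against, had no numeric value in the table. Pecam1, which encodes the CD31 sorted against, was detected. It had 358.7, 284.5 and 199.8 normalized counts in the pregnant libraries, against 481.1, 357.8 and 507.8 in the non-pregnant libraries. Of 22 listed endothelial markers 13 held a value. Their summed level was 2272.8 to 3211 normalized counts in the pregnant libraries, against 2220.7 to 5555.8 in the non-pregnant libraries. Leukocyte markers were near the bottom of the range, with 11 of the 28 listed markers holding a value and their summed level at 84.4 to 312 normalized counts in the pregnant libraries, against 182 to 433 in the non-pregnant libraries.

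Pregnancy went with higher RNA of 301 genes and lower RNA of 182 genes in the non-activated cells. These 483 calls are 4.62% of the 10447 genes that reached a normalized count of 10 in at least 3 libraries, with 2.88% called higher and 1.74% called lower. A gene was called when the adjusted p of limma's test on log2(normalized count + 1), with Benjamini-Hochberg adjustment over all tested genes, was below 0.05. The difference was at least 2-fold for 167 of the genes that rose and 97 of those that fell. The pregnant and non-pregnant libraries did not overlap for 481 of the 483 genes, against 2475 (23.7%) of all tested genes. The smallest adjusted p values belonged to the tenascin C gene Tnc and the transcription factor genes Fosl1 and Myod1 among the genes that rose, and to the carbonic anhydrase gene Car12 and the coactivator gene Greb1 among those that fell.

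The split between higher and lower calls depended on the scaling between libraries. With scaling to the total count, 246 genes rose and 288 fell, so that 46.1% of the calls were higher, against 62.3% with the deposited scaling. Taking out the trend of the difference with the genomic span of the gene gave 369 higher and 107 lower calls (77.5% higher). The genes that fell were long: their median span was 132 kb, against 29 kb for the genes that rose and 27.8 kb for all tested genes. Without pregnant library 2, 247 genes were called, without non-pregnant library 1 393 and without non-pregnant library 2 237. Of the 96 called genes that the naming rule picked, 52 kept their call with each of the 6 libraries left out in turn. Any gene below that lost its call in this way is named with the libraries concerned. The authors' deposited table called 2812 genes in this comparison, 1392 higher and 1420 lower, which included 477 (98.8%) of the 483 calls, all in the same direction. Those 477 are 17% of the authors' calls. The authors' calls come from the same libraries, so the overlap is not independent support.

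**Figure D1:**
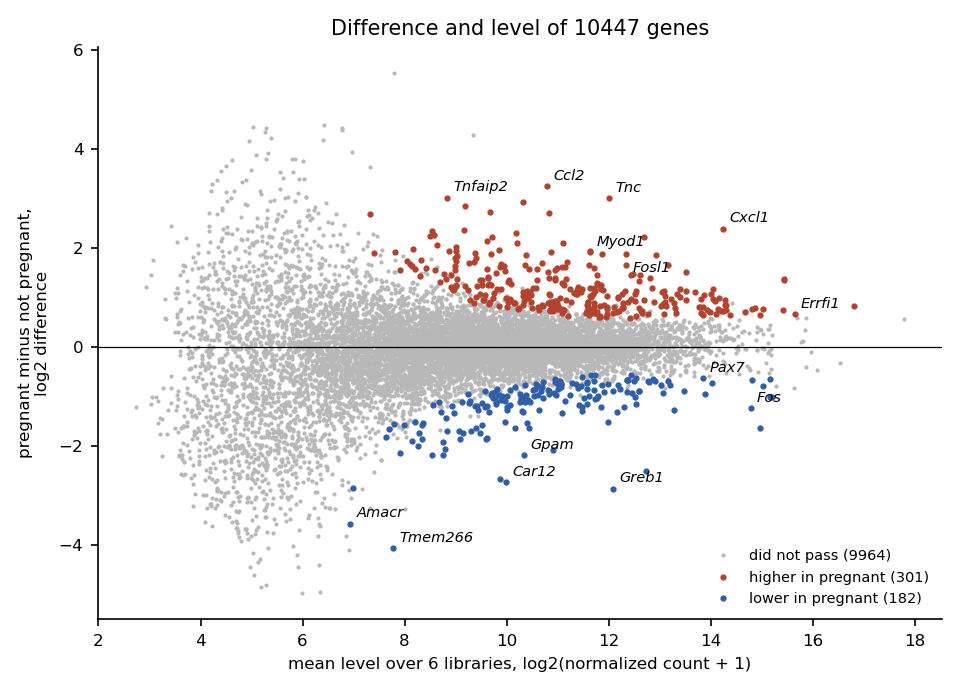
Each point is 1 tested gene, with its mean level over the 6 libraries as log2(normalized count + 1) on the x axis and the log2 difference, pregnant minus not pregnant, on the y axis. The 301 genes called higher are red, the 182 called lower are blue and the 9964 that did not pass are grey; Tnc and Ccl2 lie near the top at 3.00 and 3.25, and Greb1 and Car12 near the bottom at -2.87 and -2.73.

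Myod1 rose and Pax7 fell. Myod1 (chr7:46376474-46379092) had 4518, 5186 and 5413 normalized counts in the pregnant libraries, against 1299, 1295 and 1403 in the non-pregnant libraries. Every pregnant library was more than 3 times as high as every non-pregnant one, and the log2 difference of 1.92 ± 0.16 (SE) passed with a limma adjusted p of 2.06e-05. Pax7 (chr4:139737062-139833528) had 11668, 11240.5 and 11519 normalized counts in the pregnant libraries, against 14481, 18787 and 20831 in the non-pregnant libraries. Here the pregnant libraries were all lower and lay close together, and the log2 difference was -0.64 ± 0.17 (limma adjusted p = 0.041). That call was close to the threshold: Pax7 lost it without any one of pregnant libraries 1, 2 and 3 or non-pregnant libraries 2 and 3 (log2 difference -0.65 to -0.52), and also after the span trend was removed. Myf5, the other early myogenic factor of satellite cells, had 1188, 2193 and 1600.5 normalized counts in the pregnant libraries, against 1234, 1276 and 1366 in the non-pregnant libraries, and these ranges overlapped (log2 difference 0.32 ± 0.22, limma adjusted p = 0.478). In whole sorted populations such as these, more cells with a transcript and more transcript per cell cannot be told apart. Eya1, a transcriptional coactivator of muscle precursors, rose (log2 difference 0.71 ± 0.19, limma adjusted p = 0.0458) but lost its call without any one of pregnant libraries 1 and 3 or non-pregnant libraries 1, 2 and 3 (log2 difference 0.55 to 0.80) and with scaling to the total count. Myod1 and Eya1 were the 2 genes that rose among 27 tested genes of myogenic commitment, against 2.88% of all tested genes called higher. In this list 0 fell (1 fell without pregnant library 1).

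Of 33 tested genes listed for satellite cell quiescence, 2 rose and 3 fell, against 2.88% of all tested genes called higher and 1.74% called lower. Their median log2 difference of -0.01 was near the -0.022 of all tested genes. Foxo1, a forkhead factor that holds resting satellite cells in their state, had 3826, 3269 and 3798 normalized counts in the pregnant libraries, against 7485, 6731 and 6421 in the non-pregnant libraries. The groups were well apart (log2 difference -0.92 ± 0.15, limma adjusted p = 0.00288). Heyl, a Notch target of quiescent satellite cells, had 3598, 3867 and 5594 normalized counts in the pregnant libraries, against 7732, 9422 and 6947 in the non-pregnant libraries. For Heyl the log2 difference was -0.90 ± 0.19 (limma adjusted p = 0.0121). It lost its call without any one of pregnant libraries 1 and 2 or non-pregnant library 2 (log2 difference -0.83 to -0.78). The 2 that rose encode surface proteins: Vcam1, the adhesion receptor by which the cells were sorted, with 16900.3, 26342 and 30247 normalized counts in the pregnant libraries, against 9673, 12245 and 14855 in the non-pregnant libraries (log2 difference 0.98 ± 0.22, limma adjusted p = 0.0177), and Sdc4, a heparan sulfate proteoglycan, with a log2 difference of 0.77 ± 0.18 (limma adjusted p = 0.022). Vcam1 lost its call without any one of pregnant libraries 2 and 3 or non-pregnant library 1 (log2 difference 0.81 to 0.91), and Sdc4 without any one of pregnant libraries 2 and 3 or non-pregnant libraries 1, 2 and 3 (log2 difference 0.62 to 0.79). Calcr, the calcitonin receptor gene of quiescent cells, had 3025, 2792 and 4826 normalized counts in the pregnant libraries, against 3498, 3817 and 6143 in the non-pregnant libraries, which overlapped (limma adjusted p = 0.483).

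Listed genes of S phase and of G2 and M phase did not pass in either direction. Over all tested genes 4.62% were called, so 0 calls in lists of 16 genes say little. Of 16 tested S phase genes limma called 0, while 6 had an unadjusted p below 0.05 and limma voom on the raw counts called 0. The S phase genes had a median log2 difference of -0.48, and 13 of the 16 were below 0. Of 16 tested G2 and M phase genes limma called 0, with 3 at an unadjusted p below 0.05 and 0 by voom. Their median was -0.80, with 11 of the 16 below 0. Mki67, the proliferation marker, ran from 138 to 1233 normalized counts in the pregnant libraries, against 403 to 2162 in the non-pregnant libraries, so the ranges overlapped. Its values were looked up after the list counts were known. The G1 cyclin gene Ccnd1, also picked after its values were seen, had 966, 1597 and 1535 normalized counts in the pregnant libraries, against 3092, 2668 and 2213 in the non-pregnant libraries. Ccnd1 had a log2 difference of -0.98 ± 0.22 (limma adjusted p = 0.0171). It lost its call without any one of pregnant library 1 or non-pregnant libraries 1 and 2 (log2 difference -0.97 to -0.75).

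**Figure D2:**
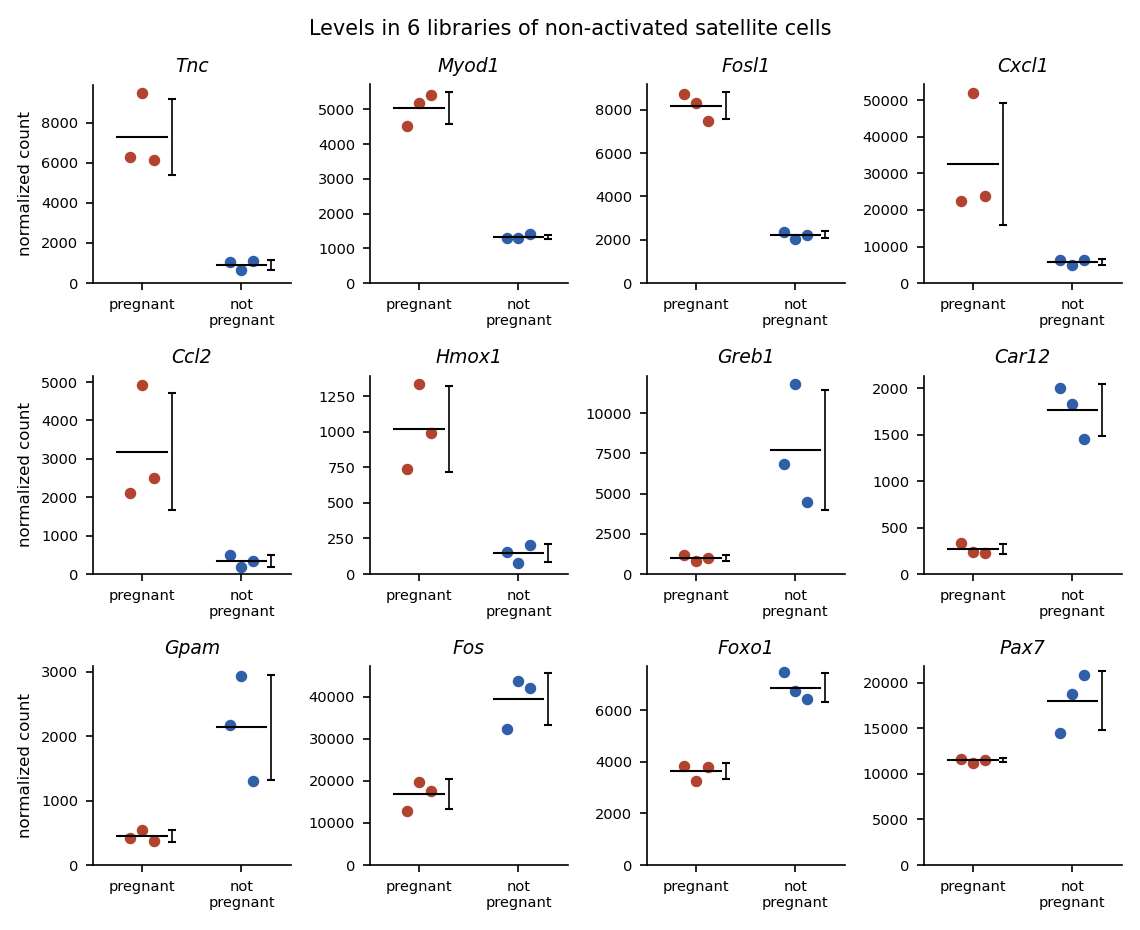
Normalized counts of 12 genes in the 3 pregnant (left, red) and 3 non-pregnant (right, blue) libraries; each point is 1 library, the line is the group mean and the bar its SD. Tnc, Myod1, Fosl1, Cxcl1, Ccl2 and Hmox1 are higher in every pregnant library, and Greb1, Car12, Gpam, Fos, Foxo1 and Pax7 are lower in every pregnant library.

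The chemokine and NF-kB target list held the largest share of higher calls of all the lists. NF-kB is a family of dimeric factors that inhibitor proteins hold in the cytoplasm; once released by inflammatory signals it induces chemokines, adhesion molecules and its own inhibitors. Of 23 tested members, 10 rose and 0 fell, against 2.88% of all tested genes called higher, and 21 members had a difference above 0 around a median log2 difference of 0.72. Leaving out non-pregnant library 2 left 6 of the calls. The window of 250 bases before the RefSeq start of the gene (RefSeq table, build GRCm38.p6) is printed for 3 of these genes, because they moved together and their windows hold the consensus site of NF-kB. Capitals mark matches to that consensus and to the AP-1 motif TGACTCA or TGAGTCA, both searched on both strands. In the Cxcl1 window (chr5:90890995-90891244, plus strand) 2 overlapping matches begin 71 and 70 bases before the start. The Nfkbie window (chr17:45555450-45555699, plus strand) has 1 NF-kB match 106 bases and 1 AP-1 match 156 bases before the start. The Tnfaip3 window (chr10:19015411-19015660, minus strand) has NF-kB matches 125 and 12 bases and an AP-1 match 136 bases before the start.
Cxcl1: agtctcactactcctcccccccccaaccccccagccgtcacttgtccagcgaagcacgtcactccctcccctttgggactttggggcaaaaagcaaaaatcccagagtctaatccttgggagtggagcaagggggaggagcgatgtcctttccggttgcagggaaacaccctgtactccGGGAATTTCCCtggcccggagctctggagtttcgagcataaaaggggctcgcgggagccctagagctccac
Nfkbie: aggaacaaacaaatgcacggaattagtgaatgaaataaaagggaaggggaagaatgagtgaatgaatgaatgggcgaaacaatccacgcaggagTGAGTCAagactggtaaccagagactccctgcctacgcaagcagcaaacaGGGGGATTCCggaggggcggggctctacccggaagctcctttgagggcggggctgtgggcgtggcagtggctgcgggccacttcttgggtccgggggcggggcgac
Tnfaip3: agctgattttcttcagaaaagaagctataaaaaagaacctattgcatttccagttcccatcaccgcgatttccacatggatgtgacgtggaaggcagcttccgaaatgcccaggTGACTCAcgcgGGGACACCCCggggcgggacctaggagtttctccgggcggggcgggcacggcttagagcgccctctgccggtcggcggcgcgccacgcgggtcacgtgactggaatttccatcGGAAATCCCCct

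The NF-kB consensus was in the windows of 7 of the 9 called members with a promoter entry and in 3 of the 9 members that were not called and had one. Among genes with a promoter entry, it was found for 8.23% of all 27025 and for 11.0% of the tested genes. The share was 15.7% (35 of 223) of genes called higher and 10.7% (15 of 140) of genes called lower. A gene with several starts was counted if any of its windows held a match. The shares are descriptions of the letters in these windows.

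Among the chemokines, Ccl2 (chr11:82035571-82037453), which draws monocytes, had 2114, 4934 and 2508 normalized counts in the pregnant libraries, against 508, 179 and 333 in the non-pregnant libraries. Its log2 difference of 3.25 ± 0.36 (limma adjusted p = 0.000163) made it 9.49-fold higher. Cxcl1 (chr5:90891241-90893115), which draws neutrophils, had 22398, 52014 and 23698 normalized counts in the pregnant libraries, against 6434, 4866 and 6180.3 in the non-pregnant libraries (log2 difference 2.38 ± 0.26, limma adjusted p = 0.000143). Pregnant library 2 was the highest for both chemokines, and the lowest pregnant library was still more than 3 times the highest non-pregnant one. Tnfaip2, a gene induced by tumour necrosis factor, had 503, 1058 and 825 normalized counts in the pregnant libraries, against 36.3, 148 and 149 in the non-pregnant libraries. For Tnfaip2 the log2 difference was 3.02 ± 0.51 (limma adjusted p = 0.00348). Icam1, the adhesion molecule bound by leukocyte integrins, had 3471, 3956 and 2746 normalized counts in the pregnant libraries, against 1614, 890.2 and 930.2 in the non-pregnant libraries. Icam1 had a log2 difference of 1.60 ± 0.23 (limma adjusted p = 0.00112). All 4 rose with no overlap, which the naming rule required of Ccl2, Cxcl1 and Tnfaip2. The difference of Tnfaip2 was 2.35 without non-pregnant library 1, its lowest library.

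Some of the inhibitors that NF-kB induces rose beside the chemokines. Nfkbie, which encodes the inhibitor IkB epsilon, had 2994, 4153 and 3239 normalized counts in the pregnant libraries, against 1334, 1605 and 1929 in the non-pregnant libraries (log2 difference 1.09 ± 0.19, limma adjusted p = 0.00412). Tnfaip3, the gene of the ubiquitin-editing inhibitor A20, had 19465, 24962 and 22299 normalized counts in the pregnant libraries, against 8887, 13262 and 12439.5 in the non-pregnant libraries. For Tnfaip3 the log2 difference was 0.96 ± 0.18 (limma adjusted p = 0.00603). Its partner Tnip1, not on the list, had 19251, 16833 and 17476 normalized counts in the pregnant libraries, against 11046, 9579 and 10287 in the non-pregnant libraries. Tnip1 had a log2 difference of 0.79 ± 0.15 (limma adjusted p = 0.00617). Nfkbia, the inhibitor most often used as a readout of the pathway, had 8365, 11283 and 9664 normalized counts in the pregnant libraries, against 8744, 7687 and 7423 in the non-pregnant libraries, and these overlapped (limma adjusted p = 0.359). The subunit genes Rela and Rel rose by less, with log2 differences of 0.67 ± 0.15 and 0.72 ± 0.17 (limma adjusted p = 0.0229 and 0.0284), and Nfkb1 did not pass (0.57 ± 0.21, limma adjusted p = 0.154). Csf1, the macrophage growth factor gene, rose by 1.15 ± 0.24 and Il1r1, the receptor of interleukin 1, by 0.79 ± 0.21 on the log2 scale (limma adjusted p = 0.013 and 0.0485). Rela lost its call without any one of pregnant libraries 2 and 3 or non-pregnant libraries 2 and 3 (log2 difference 0.58 to 0.70), Rel without any one of pregnant libraries 1, 2 and 3 or non-pregnant libraries 2 and 3 (log2 difference 0.61 to 0.81), Csf1 without any one of pregnant libraries 1 and 2 or non-pregnant library 2 (log2 difference 0.97 to 1.18) and Il1r1 without any one of pregnant libraries 1 and 3 or non-pregnant libraries 1, 2 and 3 (log2 difference 0.53 to 0.90). Ptx3, a secreted pattern recognition protein that inflammatory cytokines induce, rose by 2.25 ± 0.42 (limma adjusted p = 0.00571). Tnfaip3, Tnip1, Rela, Rel, Csf1, Il1r1 and Ptx3 lie outside the naming rule and were chosen after their values were seen.

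A minority of the listed interferon-induced genes and genes of class I antigen presentation rose. Interferons induce guanylate-binding proteins, poly-ADP-ribosyltransferases and the class I chains that show peptides to T cells. Of 38 tested members, 7 rose and 0 fell, against 2.88% of all tested genes called higher, with 34 above 0 and a median log2 difference of 0.67; without pregnant library 2 the count of calls was 4. Gbp2, a guanylate-binding protein, had 4705, 5089 and 7707 normalized counts in the pregnant libraries, against 2234, 1105 and 1492 in the non-pregnant libraries (log2 difference 1.88 ± 0.24, limma adjusted p = 0.000522). Gbp5, a relative near it on the chromosome that was not listed and was chosen after its values were seen, had 1619, 2561 and 2059 normalized counts in the pregnant libraries, against 566, 493 and 633 in the non-pregnant libraries. For Gbp5 the log2 difference was 1.86 ± 0.22 (limma adjusted p = 0.000279). Guanylate-binding proteins are near copies of each other, so reads can be split between them. Parp14 rose by 1.13 ± 0.17 (limma adjusted p = 0.00169).

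The invariant and heavy chains of class I moved in the same direction. B2m, the invariant chain, had 2891, 4016 and 3769 normalized counts in the pregnant libraries, against 1906, 1315 and 1901 in the non-pregnant libraries. B2m had a log2 difference of 1.07 ± 0.20 (limma adjusted p = 0.00553). H2-D1, a classical heavy chain, had 4085, 4128 and 3478 normalized counts in the pregnant libraries, against 2288, 2121 and 2116 in the non-pregnant libraries (log2 difference 0.84 ± 0.16, limma adjusted p = 0.00626). H2-Q7, a non-classical heavy chain, ranged from 309.7 to 1065 normalized counts in the pregnant libraries, against 50.1 to 219.8 in the non-pregnant libraries, with a log2 difference of 2.26 ± 0.55 (limma adjusted p = 0.0275). Class I heavy chains share much of their sequence, and the value of each is uncertain to that extent. The call of H2-Q7 was lost without any one of pregnant libraries 1 and 2 or non-pregnant library 1 (log2 difference 1.67 to 2.32), that of Ifi27 (1.06 ± 0.25, limma adjusted p = 0.0229) without any one of pregnant libraries 2 and 3 or non-pregnant libraries 2 and 3 (log2 difference 0.91 to 1.04), and that of Gbp3 (0.92 ± 0.22, limma adjusted p = 0.0291) without any one of pregnant libraries 1 and 2 or non-pregnant libraries 2 and 3 (log2 difference 0.74 to 0.98). The regulator Irf1 overlapped between the groups, with a log2 difference of -0.15 ± 0.17 (limma adjusted p = 0.696). H2-Q7 and Gbp3 were chosen after their values were seen.

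**Figure D3:**
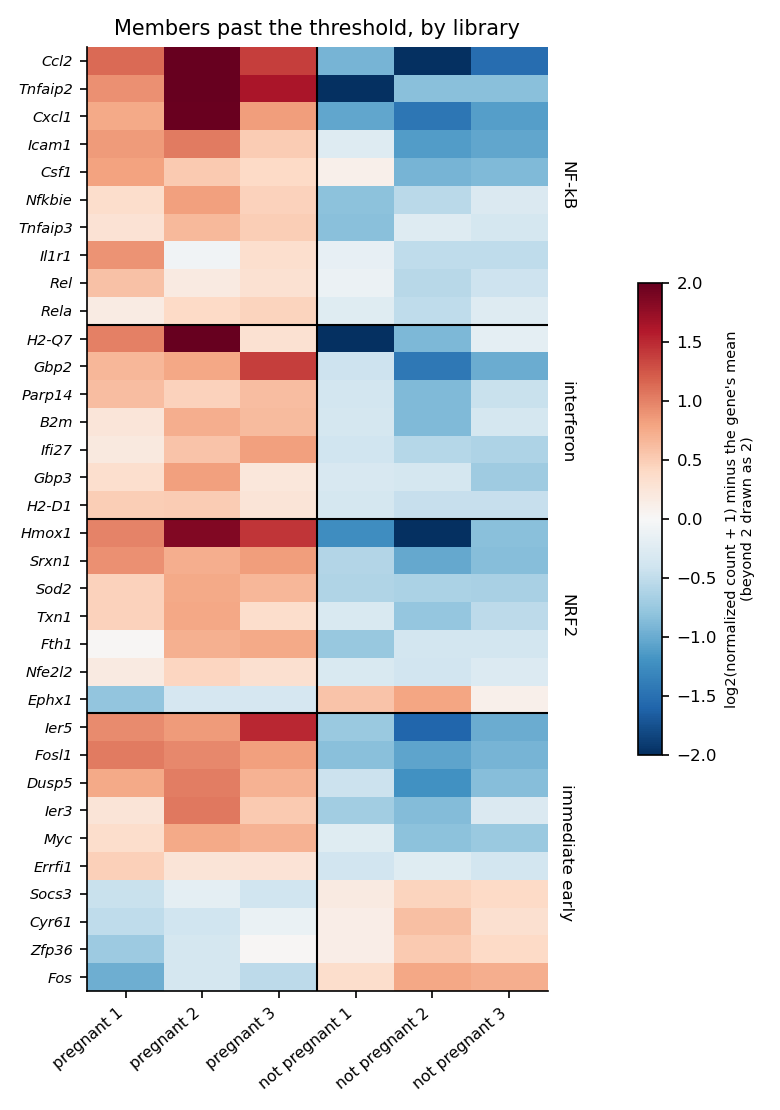
Called members of the NF-kB, interferon, NRF2 and early response lists (rows) in the 3 pregnant and 3 non-pregnant libraries (columns, pregnant first); colour is log2(normalized count + 1) minus the mean of the gene over the 6 libraries, with values beyond 2 drawn as 2. Most rows are red in the pregnant columns, and Fos, Socs3, Cyr61, Zfp36 and Ephx1 are blue there.

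Early response genes moved in both directions. Cells switch these genes on within minutes of a growth signal or of stress; FOS and FOSL1 pair with JUN proteins to form AP-1, and dual-specificity phosphatases and Sprouty proteins then damp the MAP kinase signal. Of 37 tested members of the early response and dissociation list, 6 rose and 4 fell around a median log2 difference of 0.10. Over all tested genes 2.88% were called higher and 1.74% lower. Fosl1 (chr19:5447703-5455945) had 8751, 8335 and 7505 normalized counts in the pregnant libraries, against 2378, 2050.5 and 2239.5 in the non-pregnant libraries. For Fosl1 the log2 difference was 1.88 ± 0.15 (limma adjusted p = 1.94e-05). Fos (chr12:85473890-85477273) went the other way, with 12949, 19841 and 17688 normalized counts in the pregnant libraries, against 32294, 43646 and 42188 in the non-pregnant libraries. Fos had a log2 difference of -1.24 ± 0.19 (limma adjusted p = 0.00187). The groups did not overlap for either gene. Jun had 20151, 32068 and 35517 normalized counts in the pregnant libraries, against 40483, 49182 and 60939 in the non-pregnant libraries, all lower with pregnancy, and missed the threshold (log2 difference -0.80 ± 0.22, limma adjusted p = 0.0562), though limma voom called it. Egr1 was likewise lower in each pregnant library without passing (-0.45 ± 0.17, limma adjusted p = 0.175).

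Ier5, a stress-induced regulator of HSF1, had 9622, 9010.1 and 14141 normalized counts in the pregnant libraries, against 2965, 1658 and 2498 in the non-pregnant libraries (log2 difference 2.21 ± 0.22, limma adjusted p = 5.94e-05). Myc had 8585, 11383 and 10858 normalized counts in the pregnant libraries, against 5722, 3817 and 4045 in the non-pregnant libraries. For Myc the log2 difference was 1.20 ± 0.18 (limma adjusted p = 0.00168). Dusp5, a nuclear phosphatase of ERK, had 1879, 2269 and 1797 normalized counts in the pregnant libraries, against 826, 482 and 617 in the non-pregnant libraries. Dusp5 had a log2 difference of 1.65 ± 0.23 (limma adjusted p = 0.000769). These 3 rose with wide gaps between the groups. Ier3 and Errfi1 rose by 1.24 ± 0.28 and 0.66 ± 0.17 (limma adjusted p = 0.0185 and 0.0376), and Socs3, Cyr61 and Zfp36 fell, with log2 differences of -0.69 ± 0.15, -0.70 ± 0.17 and -0.71 ± 0.19 (limma adjusted p = 0.0179, 0.0288 and 0.0497). These 5 calls did not hold with fewer libraries: Ier3 lost its call without any one of pregnant library 2 or non-pregnant library 2 (log2 difference 1.01 to 1.11), Errfi1 without any one of the 6 libraries (log2 difference 0.59 to 0.70), Socs3 without any one of pregnant library 1 or non-pregnant libraries 2 and 3 (log2 difference -0.65 to -0.64), Cyr61 without any one of pregnant libraries 1 and 2 or non-pregnant libraries 2 and 3 (log2 difference -0.71 to -0.57) and Zfp36 without any one of pregnant libraries 1 and 2 or non-pregnant libraries 1, 2 and 3 (log2 difference -0.82 to -0.52). Ier3, Cyr61 and Zfp36 were chosen after their values were seen.

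Ets1, Dusp10, Spry2, Plau and Plaur lie outside the naming rule and were chosen after their values were seen. Ets1, an ETS factor, had 14382, 14423 and 13092 normalized counts in the pregnant libraries, against 4708, 3632 and 5076 in the non-pregnant libraries (log2 difference 1.66 ± 0.16, limma adjusted p = 5.45e-05). Dusp10, a phosphatase of p38 and JNK, had 10142, 8356 and 8909 normalized counts in the pregnant libraries, against 3650.1, 3078 and 3233 in the non-pregnant libraries. For Dusp10 the log2 difference was 1.46 ± 0.15 (limma adjusted p = 0.000111). Spry2, a feedback inhibitor of receptor tyrosine kinases, rose by 1.11 ± 0.20 (limma adjusted p = 0.00459). The urokinase gene Plau and its receptor gene Plaur, which together focus plasmin at the cell surface, rose as a pair. Plau had 7476, 9669.7 and 7854 normalized counts in the pregnant libraries, against 3081, 2548 and 3412 in the non-pregnant libraries. Plau had a log2 difference of 1.47 ± 0.17 (limma adjusted p = 0.000217). Plaur had 4297, 3424 and 2889 normalized counts in the pregnant libraries, against 1469.7, 898 and 929.5 in the non-pregnant libraries (log2 difference 1.70 ± 0.22, limma adjusted p = 0.000513). The AP-1 motif TGACTCA or TGAGTCA was searched on either strand of the 250-base windows and counted per gene with a promoter entry. It was found for 8.97% (20 of 223) of genes called higher and 0.714% (1 of 140) of genes called lower. The share was 4.04% of all tested genes and 5.16% of all genes with an entry. In the early response list it was found for 0 of 4 genes called higher and 0 of 22 genes not called. In the NF-kB list the motif was found for 2 of 9 genes called higher and 2 of 9 genes not called. The windows of Plaur (chr7:24462233-24462482, plus strand, 1 match 69 bases before the start) and of Srxn1 (chr2:152105274-152105523, plus strand, matches 102 and 45 bases before the start) show it in capitals, from the same RefSeq table of build GRCm38.p6.
Plaur: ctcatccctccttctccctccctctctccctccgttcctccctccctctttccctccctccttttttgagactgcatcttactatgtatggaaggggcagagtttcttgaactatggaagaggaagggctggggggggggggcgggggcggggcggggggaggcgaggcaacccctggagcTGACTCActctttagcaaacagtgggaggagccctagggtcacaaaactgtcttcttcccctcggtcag
Srxn1: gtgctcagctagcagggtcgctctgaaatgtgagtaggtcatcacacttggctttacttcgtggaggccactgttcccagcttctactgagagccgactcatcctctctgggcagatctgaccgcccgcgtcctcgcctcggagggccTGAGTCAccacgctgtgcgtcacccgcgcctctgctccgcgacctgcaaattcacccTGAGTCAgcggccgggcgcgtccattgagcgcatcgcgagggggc

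Genes of the NRF2 oxidative stress response had calls that were mostly in one direction. NRF2, encoded by Nfe2l2, is held for degradation by KEAP1 until oxidants or electrophiles free it, and it then induces enzymes that remove peroxides, haem and free iron. Of 35 tested members, 6 rose and 1 fell, against 2.88% of all tested genes called higher and 1.74% called lower. The difference was above 0 for 26 members, around a median log2 difference of 0.31. Srxn1, which restores oxidised peroxiredoxins, had 8260.1, 7265 and 7874 normalized counts in the pregnant libraries, against 2926, 2169.8 and 2441 in the non-pregnant libraries. For Srxn1 the log2 difference was 1.64 ± 0.16 (limma adjusted p = 5.45e-05). Hmox1, the haem oxygenase that frees iron from haem, had 735, 1332 and 991 normalized counts in the pregnant libraries, against 155, 80 and 205 in the non-pregnant libraries. Hmox1 had a log2 difference of 2.85 ± 0.38 (limma adjusted p = 0.000604). Sod2, the mitochondrial superoxide dismutase, had 2780.3, 3418 and 3213 normalized counts in the pregnant libraries, against 1339, 1311 and 1286 in the non-pregnant libraries (log2 difference 1.25 ± 0.17, limma adjusted p = 0.000652). The 3 genes did not overlap between the groups, which the naming rule required of Hmox1, and the non-pregnant libraries of Sod2 were close to each other.

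Txn1, thioredoxin, had 2336, 2912 and 2169 normalized counts in the pregnant libraries, against 1370.5, 996 and 1184 in the non-pregnant libraries. For Txn1 the log2 difference was 1.06 ± 0.19 (limma adjusted p = 0.00511). Fth1, the iron-storing ferritin heavy chain, had 4339, 6989 and 7221 normalized counts in the pregnant libraries, against 2527, 3292 and 3305 in the non-pregnant libraries. Fth1 had a log2 difference of 1.00 ± 0.20 (limma adjusted p = 0.00956). Nfe2l2 itself rose by 0.63 ± 0.16 (limma adjusted p = 0.0306), and the epoxide hydrolase gene Ephx1 fell (log2 difference -0.97 ± 0.21, limma adjusted p = 0.0134). Fth1 lost its call without pregnant library 2 (log2 difference 0.89, adjusted p = 0.0694), Nfe2l2 without any one of pregnant libraries 2 and 3 or non-pregnant libraries 1, 2 and 3 (log2 difference 0.57 to 0.66) and Ephx1 without any one of pregnant library 1 or non-pregnant library 2 (log2 difference -0.82 in both cases). Not every classic target moved: Gclm, of glutathione synthesis, had 1971, 1729.6 and 1013 normalized counts in the pregnant libraries, against 1504, 1188 and 1335 in the non-pregnant libraries, which overlapped (limma adjusted p = 0.751), and Nqo1 was barely detected, with at most 49.9 normalized counts. Nfe2l2, Ephx1, Gclm and Nqo1 were chosen after their values were seen.

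Among genes outside that list, Slc39a14 (ZIP14), which carries zinc and iron into the cell, had 20841, 17219 and 29006 normalized counts in the pregnant libraries, against 11257, 10157 and 9884 in the non-pregnant libraries (log2 difference 1.07 ± 0.19, limma adjusted p = 0.00415). Steap4, a metalloreductase chosen after its values were seen, had 3578, 4307 and 2770.4 normalized counts in the pregnant libraries, against 967, 722 and 791 in the non-pregnant libraries. For Steap4 the log2 difference was 2.09 ± 0.20 (limma adjusted p = 5.45e-05). The metallothionein gene Mt2 had 5558, 8835 and 9980.5 normalized counts in the pregnant libraries, against 2622, 3345 and 5461 in the non-pregnant libraries (log2 difference 1.12 ± 0.25, limma adjusted p = 0.0206); it lost its call without any one of pregnant libraries 2 and 3 or non-pregnant library 1 (log2 difference 0.88 to 1.04). Slc11a2 (DMT1), an iron importer, rose by 0.84 ± 0.21 (limma adjusted p = 0.0353) and lost its call without any one of pregnant libraries 1 and 2 or non-pregnant libraries 1, 2 and 3 (log2 difference 0.70 to 0.89). Among all 174 tested solute carriers 6 rose and 0 fell, a share of higher calls near the 2.88% of all genes, and the count was 3 without pregnant library 2 or without non-pregnant library 2.

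Tnc, the gene of tenascin C, had the smallest adjusted p of the comparison. Tenascin C is a matrix glycoprotein that appears around injured and developing muscle and takes part in the adhesion of satellite cells. Tnc (chr4:63959785-64047015) had 6299, 9457 and 6112 normalized counts in the pregnant libraries, a mean of 7289.5 ± 1879 (SD, n = 3), against 1039.7, 633 and 1082 in the non-pregnant libraries, a mean of 918 ± 248 (SD, n = 3). The log2 difference was 3.00 ± 0.23 (limma adjusted p = 1.63e-05). Vcan, the large proteoglycan of provisional matrix, had 1817, 1514 and 2479.6 normalized counts in the pregnant libraries, against 518, 308 and 361 in the non-pregnant libraries. Vcan had a log2 difference of 2.29 ± 0.26 (limma adjusted p = 0.000188). Lox, the lysyl oxidase that crosslinks collagen and elastin, had 1529, 1434 and 1487 normalized counts in the pregnant libraries, against 566, 399 and 592 in the non-pregnant libraries (log2 difference 1.53 ± 0.22, limma adjusted p = 0.00115). Thbs1, thrombospondin, had 4617, 3562 and 4987 normalized counts in the pregnant libraries, against 1523, 2178 and 2077 in the non-pregnant libraries. For Thbs1 the log2 difference was 1.19 ± 0.19 (limma adjusted p = 0.00225). The pregnant libraries were higher without overlap for all 4, which the naming rule required of Tnc and Vcan.

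Those 4 were the calls among 51 tested matrix genes, of which 0 fell, against 2.88% of all tested genes called higher. The median log2 difference of the list was 0.16. Fibrillar collagen did not follow: Col3a1 had 7195, 9174 and 24413 normalized counts in the pregnant libraries, against 11565, 14619 and 9517 in the non-pregnant libraries, with pregnant library 3 the highest of all 6 (log2 difference 0.00 ± 0.33, limma adjusted p = 0.999). Fmod, a collagen-binding proteoglycan and the 1 call among 7 tested tenocyte markers, had 777, 390.4 and 677 normalized counts in the pregnant libraries, against 60.9, 145 and 173 in the non-pregnant libraries (log2 difference 2.35 ± 0.44, limma adjusted p = 0.00634), and lost its call without pregnant library 1 (log2 difference 2.15, adjusted p = 0.0561). The summed tenocyte markers had 16174 to 22001 normalized counts in the pregnant libraries, against 11352 to 15091 in the non-pregnant libraries. Most of each sum was 1 gene, Chodl, so the sum says little about the other markers. Chodl had 12504, 13142 and 18969 normalized counts in the pregnant libraries, against 9989, 13089.5 and 13028 in the non-pregnant libraries, which overlapped (limma adjusted p = 0.438). The part of these markers in the result for Fmod was not tested. Lox was also the 1 call among 18 tested markers of fibro-adipogenic progenitors, the matrix-making cells of muscle, whose summed level was 34948 to 68445 normalized counts in the pregnant libraries, against 35465 to 42084 in the non-pregnant libraries; Ly6a of that list has no value and Pdgfra was at 57.7 to 175 normalized counts in the pregnant libraries, against 119.8 to 272 in the non-pregnant libraries. The part of these markers in the result for Lox was not tested.

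Cd44, the hyaluronan receptor, was one of the most abundant genes that rose, with 72210.3, 57973 and 59058 normalized counts in the pregnant libraries, against 36696, 16641 and 24008 in the non-pregnant libraries. Cd44 had a log2 difference of 1.36 ± 0.24 (limma adjusted p = 0.00443). Igfbp5, a binding protein of insulin-like growth factors that muscle cells secrete, had 14425, 20273 and 16925 normalized counts in the pregnant libraries, against 5998, 4555 and 7866 in the non-pregnant libraries (log2 difference 1.51 ± 0.20, limma adjusted p = 0.000595). With Igf2bp2, which binds and stabilises RNAs (1.11 ± 0.22, limma adjusted p = 0.00845; call lost without pregnant library 1 (log2 difference 0.96, adjusted p = 0.0513)), it made up the 2 calls of 16 tested genes of the IGF axis, and the receptor gene Igf1r did not pass (-0.31 ± 0.18, limma adjusted p = 0.388). Tgif1, a corepressor of SMAD signalling, had 11288, 13489 and 10745 normalized counts in the pregnant libraries, against 5510.5, 4659 and 6071 in the non-pregnant libraries. For Tgif1 the log2 difference was 1.13 ± 0.16 (limma adjusted p = 0.001). Smad3 rose by 0.88 ± 0.20 (limma adjusted p = 0.0229) and lost its call without any one of pregnant libraries 1 and 3 or non-pregnant library 2 (log2 difference 0.68 to 0.78). Tgif1 and Smad3 were the 2 calls of 35 tested TGF-beta and BMP genes. For comparison with the calls of this list and of the IGF axis, 2.88% of all tested genes were called higher.

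A set of secreted and developmental genes that belong to no list rose strongly and was chosen after the values were seen. Gdnf, the neurotrophic factor of motor neurons, had 15028, 12328 and 8869.5 normalized counts in the pregnant libraries, against 4735, 1889.7 and 3903 in the non-pregnant libraries. Gdnf had a log2 difference of 1.85 ± 0.28 (limma adjusted p = 0.00147). Ntn4, a laminin-related netrin, had 5865, 4561 and 4739 normalized counts in the pregnant libraries, against 1710.2, 1339 and 2014 in the non-pregnant libraries (log2 difference 1.59 ± 0.18, limma adjusted p = 0.000239). En1, a homeobox factor, had 1058, 1673 and 1386 normalized counts in the pregnant libraries, against 371, 201 and 324 in the non-pregnant libraries. For En1 the log2 difference was 2.22 ± 0.29 (limma adjusted p = 0.000513). No value of a pregnant library overlapped the other group in these 3.

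The genes of sex hormone, prolactin and growth hormone signalling showed 2 rises and 3 falls among 25 tested, around a median log2 difference of -0.14. Of all tested genes, 2.88% were called higher and 1.74% lower. Greb1 (chr12:16670615-16800886), known as an oestrogen-induced coactivator from human breast cancer cells, had 1169.6, 824 and 966 normalized counts in the pregnant libraries, against 6842, 11801 and 4499.7 in the non-pregnant libraries. The pregnant libraries lay close together, while the non-pregnant libraries spread widely at higher levels, and the log2 difference was -2.87 ± 0.27 (limma adjusted p = 5.02e-05), 7.3-fold lower. Car12 (chr9:66713686-66766845), which is not on the list but is also induced by oestrogen in human breast cancer cells, encodes a carbonic anhydrase and had 330.4, 239.9 and 229.8 normalized counts in the pregnant libraries, against 2007, 1837 and 1459 in the non-pregnant libraries. Car12 had a log2 difference of -2.73 ± 0.25 (limma adjusted p = 4.26e-05). The oestrogen receptor gene Esr1 had 10422, 7309.9 and 8047 normalized counts in the pregnant libraries, against 10591, 8746 and 9302 in the non-pregnant libraries, which overlapped (limma adjusted p = 0.662). Prlr and Pgr, the prolactin and progesterone receptor genes, had no numeric value.

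Of the JAK and STAT branch, Cish, a feedback inhibitor that growth hormone and prolactin induce through STAT5, had 509, 717 and 492 normalized counts in the pregnant libraries, against 227, 145 and 212 in the non-pregnant libraries (log2 difference 1.56 ± 0.33, limma adjusted p = 0.0142). Jak2, the kinase bound to those receptors, had 4671, 4978 and 3294 normalized counts in the pregnant libraries, against 2464, 2181 and 2533 in the non-pregnant libraries. For Jak2 the log2 difference was 0.83 ± 0.18 (limma adjusted p = 0.016). Cish lost its call without any one of pregnant library 2 or non-pregnant library 2 (log2 difference 1.36 to 1.38), and Jak2 without any one of pregnant libraries 1 and 2 or non-pregnant library 2 (log2 difference 0.72 to 0.77). The growth hormone receptor gene Ghr did not pass (0.36 ± 0.17, limma adjusted p = 0.27). Fkbp4, a cochaperone of steroid receptors, fell (-0.82 ± 0.22, limma adjusted p = 0.0446), a call lost without any one of pregnant libraries 1, 2 and 3 or non-pregnant libraries 1 and 2 (log2 difference -0.88 to -0.60), with library weights and after the span trend was removed.

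Glucocorticoid targets were split, with 6 of 26 tested genes higher and 5 lower, against 2.88% higher and 1.74% lower over all tested genes. Angptl4, a secreted inhibitor of lipoprotein lipase, had 2350.3, 2726 and 4393 normalized counts in the pregnant libraries, against 407, 426 and 593 in the non-pregnant libraries. Angptl4 had a log2 difference of 2.69 ± 0.25 (limma adjusted p = 4.26e-05). Zbtb16 and Per1, which glucocorticoids also induce, went the other way. Zbtb16 had 4552, 3528 and 10419 normalized counts in the pregnant libraries, against 15408, 14525 and 10873 in the non-pregnant libraries (log2 difference -1.29 ± 0.29, limma adjusted p = 0.0214), and pregnant library 3 nearly reached the other group. Per1 had 2807, 2815 and 3419.7 normalized counts in the pregnant libraries, against 4462, 6579 and 5933 in the non-pregnant libraries (log2 difference -0.90 ± 0.18, limma adjusted p = 0.00831). Zbtb16 lost its call without any one of pregnant libraries 1 and 2 or non-pregnant library 1 (log2 difference -1.19 to -0.97), and Per1 without any one of pregnant library 2 or non-pregnant library 2 (log2 difference -0.85 to -0.78). The receptor gene Nr3c1 had 5314, 5623 and 6101 normalized counts in the pregnant libraries, against 5327, 4891 and 4464 in the non-pregnant libraries, which overlapped (limma adjusted p = 0.483), and Fkbp5, a target looked up after its values were seen, overlapped too (-0.18 ± 0.24, limma adjusted p = 0.749). The higher count of the list was 1 to 2 without any one of pregnant libraries 2 or 3 or non-pregnant libraries 1 or 2, and the lower count was 1 to 3 without any one of the 3 pregnant libraries or non-pregnant libraries 1 or 2.

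Genes of fat metabolism moved in both directions. Of 41 tested genes of fatty acid and triglyceride metabolism, 3 rose and 4 fell, against 2.88% higher and 1.74% lower over all tested genes, around a median log2 difference of -0.14. Gpam, the acyltransferase that starts triglyceride synthesis, had 414, 549 and 379.6 normalized counts in the pregnant libraries, against 2182, 2932 and 1302 in the non-pregnant libraries. For Gpam the log2 difference was -2.19 ± 0.28 (limma adjusted p = 0.000491). Scd2, a desaturase of fatty acids, had 1019, 1238 and 1443 normalized counts in the pregnant libraries, against 2935, 2807 and 3643 in the non-pregnant libraries. Scd2 had a log2 difference of -1.35 ± 0.19 (limma adjusted p = 0.000879). Ppargc1b, a coactivator of mitochondrial and lipid genes, had 159, 254 and 112 normalized counts in the pregnant libraries, against 662, 833 and 614 in the non-pregnant libraries (log2 difference -2.07 ± 0.35, limma adjusted p = 0.00363). The groups were far apart for these 3. Fasn, the fatty acid synthase gene, and Scd1, another desaturase gene, did not pass, with log2 differences of -0.48 ± 0.17 and -0.65 ± 0.32 (limma adjusted p = 0.139 and 0.299). The fourth gene that fell was Acly, which makes acetyl-CoA from citrate (log2 difference -0.70 ± 0.19, limma adjusted p = 0.0462); it lost its call without any one of the 6 libraries (log2 difference -0.84 to -0.57). The elongase gene Elovl5, not on that list, had 713, 558 and 693 normalized counts in the pregnant libraries, against 1422, 1723 and 1282 in the non-pregnant libraries. For Elovl5 the log2 difference was -1.17 ± 0.21 (limma adjusted p = 0.00528). Acly and Elovl5 were chosen after their values were seen.

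Hsd17b7, an enzyme of cholesterol synthesis, rose by 0.95 ± 0.23 (limma adjusted p = 0.0284) and lost its call without any one of the 6 libraries (log2 difference 0.84 to 1.06). Etfa, an electron carrier of fatty acid oxidation, had 4202, 4028 and 3334 normalized counts in the pregnant libraries, against 1791, 1600.4 and 2003 in the non-pregnant libraries (log2 difference 1.10 ± 0.17, limma adjusted p = 0.00182). Acsl4, which activates polyunsaturated fatty acids and was chosen after its values were seen, rose by 0.85 ± 0.17 (limma adjusted p = 0.0079). The hexokinase genes moved in opposite directions: Hk2, the form of insulin-sensitive tissue, had 16427, 11959 and 9953 normalized counts in the pregnant libraries, against 6149, 6209 and 6777 in the non-pregnant libraries. For Hk2 the log2 difference was 0.97 ± 0.18 (limma adjusted p = 0.00573). Hk1 had 2594, 2113 and 2343 normalized counts in the pregnant libraries, against 4499, 5027 and 3499 in the non-pregnant libraries (log2 difference -0.87 ± 0.18, limma adjusted p = 0.00907) and lost its call without any one of pregnant library 2 or non-pregnant library 2 (log2 difference -0.80 to -0.76). They were the 2 calls of 18 tested glycolysis genes, against 2.88% higher and 1.74% lower over all tested genes. Without non-pregnant library 1 there was 1 more higher call.

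DNA methylation genes, which the title of the study brings up, gave 0 rises and 2 falls among 27 tested, against 1.74% of all tested genes called lower. Dnmt3a, a methyltransferase that sets new methylation, had 1079, 1008 and 1198 normalized counts in the pregnant libraries, against 2878, 2075 and 1882 in the non-pregnant libraries. Dnmt3a had a log2 difference of -1.04 ± 0.20 (limma adjusted p = 0.00706). Uhrf1, a recruiter of DNMT1 to newly copied DNA, was low, with 18.9, 16.5 and 65.5 normalized counts in the pregnant libraries, against 228, 297 and 126 in the non-pregnant libraries (log2 difference -2.85 ± 0.73, limma adjusted p = 0.0374), and it lost its call without any one of pregnant libraries 1 and 2 or non-pregnant libraries 1, 2 and 3 (log2 difference -3.20 to -2.50) and with voom; the difference was -3.46 without pregnant library 3. Dnmt1, Dnmt3b and Tet1 did not pass, with log2 differences of -0.67 ± 0.24, -1.47 ± 0.67 and -0.54 ± 0.37 (limma adjusted p = 0.148, 0.256 and 0.475).

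Notch genes gave 0 rises and 2 falls among 27 tested, against 1.74% of all tested genes called lower. They were Heyl, described above, and Dtx4, a ubiquitin ligase of the pathway, with 4968, 4579.7 and 8679.7 normalized counts in the pregnant libraries, against 11024, 11599.9 and 10747 in the non-pregnant libraries (log2 difference -0.93 ± 0.21, limma adjusted p = 0.0179; call lost without any one of pregnant libraries 1 and 2 or non-pregnant library 1 (log2 difference -0.94 to -0.76)). The receptor genes Notch1 and Notch3 overlapped between the groups (-0.30 ± 0.17 and 0.01 ± 0.18, limma adjusted p = 0.382 and 0.981). Wnt genes likewise gave 0 rises and 2 falls among 34. Wnt4, a ligand that myofibres supply to hold satellite cells at rest, had 425, 338 and 259.7 normalized counts in the pregnant libraries, against 1487, 1333 and 518 in the non-pregnant libraries (log2 difference -1.59 ± 0.36, limma adjusted p = 0.0201), and its lowest non-pregnant library came close to the highest pregnant one. Wnt4 lost its call without any one of pregnant libraries 2 and 3 or non-pregnant libraries 1 and 2 (log2 difference -1.60 to -1.31), and the repressor gene Tcf7l1 (-0.73 ± 0.18, limma adjusted p = 0.0341) without any one of pregnant libraries 2 and 3 or non-pregnant libraries 2 and 3 (log2 difference -0.69 to -0.63) and after the span trend was removed.

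The remaining genes with the largest differences have varied roles. Rnd1, a small GTP-binding protein that loosens the actin skeleton, had 1273, 3598 and 1998 normalized counts in the pregnant libraries, against 238, 244 and 361 in the non-pregnant libraries (log2 difference 2.92 ± 0.33, limma adjusted p = 0.000188). Sipa1l2, a regulator of Rap proteins, had 2102, 1397 and 788 normalized counts in the pregnant libraries, against 289.6, 134 and 206 in the non-pregnant libraries. For Sipa1l2 the log2 difference was 2.72 ± 0.37 (limma adjusted p = 0.000716). Plk2, a kinase induced by stress and p53, had 8344, 10486 and 7661 normalized counts in the pregnant libraries, against 3965, 3098 and 3512 in the non-pregnant libraries. Plk2 had a log2 difference of 1.32 ± 0.17 (limma adjusted p = 0.000491). All 3 were higher in every pregnant library, which the naming rule required of Rnd1 and Sipa1l2. Gm13889 rose by 2.36 ± 0.42 (limma adjusted p = 0.00461) and Enc1 by 2.69 ± 0.62 (limma adjusted p = 0.0226), but Enc1 was low and lost its call without any one of pregnant libraries 1 and 2 (log2 difference 2.28 to 2.91) and with voom.

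Among the genes that fell, Ksr2, a scaffold of the MAP kinase cascade, had 3060.0, 2122 and 1113 normalized counts in the pregnant libraries, against 14378, 12734 and 7468 in the non-pregnant libraries (log2 difference -2.52 ± 0.30, limma adjusted p = 0.00035). Dclk3, a kinase related to doublecortin, had 332, 135 and 289 normalized counts in the pregnant libraries, against 1789, 2169.8 and 883 in the non-pregnant libraries. For Dclk3 the log2 difference was -2.68 ± 0.38 (limma adjusted p = 0.000879). Trabd2b, a membrane metalloprotease that cleaves Wnt ligands, had 872, 796 and 429.5 normalized counts in the pregnant libraries, against 3327, 4504 and 1563 in the non-pregnant libraries. Trabd2b had a log2 difference of -2.10 ± 0.34 (limma adjusted p = 0.00248). For these 3 the highest pregnant library stayed below the lowest non-pregnant one, which the naming rule required of them. BC052040 fell as well (log2 difference -2.18 ± 0.39, limma adjusted p = 0.00497). Tmem266 and Amacr had the largest falls but were close to 0 in the pregnant libraries, with 9.4, 23.5 and 32.2 normalized counts of Tmem266, against 529, 584 and 130.1 in the non-pregnant libraries, and 2.6, 28.2 and 49.9 of Amacr, against 303, 174 and 169. Their log2 differences were -4.08 ± 0.74 and -3.58 ± 0.94 (limma adjusted p = 0.00528 and 0.0433); Tmem266 lost its call without non-pregnant library 2 (log2 difference -3.69, adjusted p = 0.0656), Amacr without any one of pregnant libraries 1 and 2 or non-pregnant libraries 1, 2 and 3 (log2 difference -3.95 to -2.43), and both lost it with voom. The difference of Tmem266 was -4.77 without non-pregnant library 3, and that of Amacr -4.35 without pregnant library 3.

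Among the most abundant genes that moved, Glis3, the gene of a zinc finger factor, had 77056, 45474 and 66630.5 normalized counts in the pregnant libraries, against 30365, 17784 and 26637 in the non-pregnant libraries (log2 difference 1.34 ± 0.23, limma adjusted p = 0.00394). Pde10a, a cyclic nucleotide phosphodiesterase, had 17486, 8222 and 23249.8 normalized counts in the pregnant libraries, against 59720.3, 47020.4 and 35828 in the non-pregnant libraries. For Pde10a the log2 difference was -1.64 ± 0.30 (limma adjusted p = 0.00528). Cdh13, an anchored cadherin that binds adiponectin, had 30039, 19919 and 22787 normalized counts in the pregnant libraries, against 53153, 51939 and 41226 in the non-pregnant libraries (log2 difference -1.02 ± 0.19, limma adjusted p = 0.00594), a call lost after the span trend was removed. Ahnak, a giant scaffold protein of the membrane, rose by 0.82 ± 0.21 (limma adjusted p = 0.0356) and lost its call without any one of the 6 libraries (log2 difference 0.69 to 0.93).

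**Figure D4:**
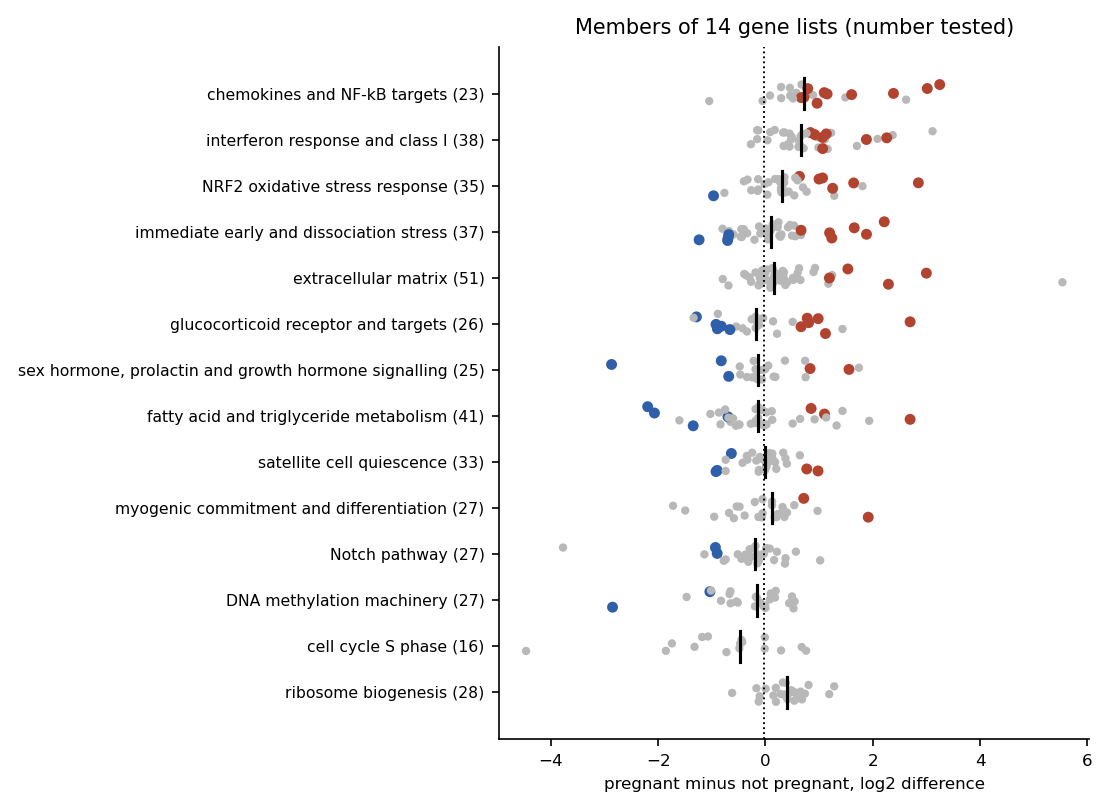
Log2 differences, pregnant minus not pregnant, of the tested members of 14 gene lists (rows, number tested in brackets); red points were called higher, blue points lower and grey points did not pass, the black bar is the median of the list and the dotted line the median of all tested genes at -0.022. The NF-kB and interferon medians of 0.72 and 0.67 stand furthest to the right, and most points of the other lists are grey. The ribosome biogenesis and NRF2 medians of 0.41 and 0.31 also lie to the right, and the S phase median of -0.48 lies to the left.

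Whole groups of housekeeping genes gave no call. Limma called 0 of 70 cytosolic ribosomal protein genes, 0 of 61 mitochondrial ribosomal protein genes, 0 of 67 nuclear genes of oxidative phosphorylation and 0 of 37 proteasome genes. At an unadjusted p below 0.05 there were 3, 1, 4 and 2 such genes, and voom called 0 in each group. Genes above 0 numbered 61 of 70, 34 of 61, 43 of 67 and 29 of 37, around median log2 differences of 0.16, 0.08, 0.10 and 0.21. For comparison with all counts of this paragraph, 4.62% of all tested genes were called, 2.88% higher and 1.74% lower. Ribosome biogenesis also had 0 calls in 28, but 24 of the 28 were above 0 around a median of 0.41, 14 had an unadjusted p below 0.05, and voom called 3; limma called 3 without non-pregnant library 1. The unfolded protein response had 0 calls in 21, with 6 at an unadjusted p below 0.05 and 0 by voom. Of 22 tested heat shock chaperones 1 rose, Hsp90aa1 (0.72 ± 0.15, limma adjusted p = 0.015; call lost without any one of pregnant library 2 or non-pregnant library 2 (log2 difference 0.67 to 0.68)), while Hspa1a, the chaperone that heat and dissociation induce, overlapped between the groups (-0.17 ± 0.24, limma adjusted p = 0.764); 2 chaperones rose without non-pregnant library 1 or 3. Of the other cell types that a muscle digest can hold, limma called 0 of 7 leukocyte, 0 of 13 endothelial, 0 of 12 smooth muscle and pericyte and 0 of 8 Schwann cell markers, with 0, 1, 1 and 2 at an unadjusted p below 0.05 and 0, 0, 1 and 0 by voom. With 4.62% of all tested genes called, 0 calls in lists this short say little about these cell types.

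The same question was asked of the cells from injured muscle, for the genes called above. In the activated cells 2883 genes (27.5% of 10499 tested) passed between 6 libraries of pregnant mice and 6 of non-pregnant mice, of which 1473 rose and 1410 fell. The authors' deposited table called 1036 genes there, 762 higher and 274 lower, against its 2812 in non-activated cells. It included 1014 (35.2%) of the 2883 calls. Which state had more calls thus depended on the method. The non-activated and activated comparisons share no library. Each stays within one library kit, but injury and kit cannot be told apart between them. In the activated cells all 11 tested leukocyte markers were higher with pregnancy, against 0 of 7 in non-activated cells, and their part in the activated differences was not tested. Across the 10257 genes tested in both, the log2 differences had a Pearson r of 0.098 and a Spearman rho of 0.114 across genes, which are not independent replicates. Of 481 genes called in non-activated cells and tested in both, 348 had the same sign in activated cells and 162 were called there, 149 in the same direction and 13 in the opposite one.

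Whether a difference itself differed was tested with the interaction term of limma over all 18 libraries, which called 1620 of 10751 genes (15.1%). For each gene that fit shares its error variance across all groups. Libraries were less alike within the non-activated groups (Pearson r 0.873 to 0.949) than within the activated groups (0.977 to 0.994). The interaction p-values may therefore be too small, and the counts of calls too high. The interaction was called for 343 of the 483 genes, which had been chosen for a difference in one of its arms. Myod1, Fosl1, Tnc and Angptl4 had log2 pregnancy differences in activated cells of 0.09 ± 0.12, -0.05 ± 0.11, 0.12 ± 0.20 and -0.04 ± 0.08 (limma adjusted p = 0.599, 0.773, 0.668 and 0.735). The differences in non-activated cells exceeded these by 1.83, 1.93, 2.87 and 2.73 (limma interaction adjusted p = 2.3e-05, 9.12e-06, 0.000157 and 2.92e-06). Pax7 was at 0.06 ± 0.13 in activated cells (limma adjusted p = 0.77), with an interaction of -0.69 (limma adjusted p = 0.0449).

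Other genes moved in both states. In activated cells, where 14% of all tested genes were called higher and 13.4% lower, 13 of 25 tested members of the NF-kB list rose and 1 fell, and of the interferon list 10 of 38 rose and 0 fell. Ccl2 and Cxcl1 rose in activated cells by 0.69 ± 0.15 and 0.77 ± 0.19 (limma adjusted p = 0.00593 and 0.0108), less than in non-activated cells by 2.56 and 1.62 (limma interaction adjusted p = 0.00101 and 0.0089). Tnfaip3, Tnip1 and Rel rose by 0.56 ± 0.14, 0.68 ± 0.11 and 0.81 ± 0.09 (limma adjusted p = 0.0108, 0.00106 and 0.000102), and for them the interaction did not pass (limma adjusted p = 0.287, 0.691 and 0.766). The class I genes H2-D1 and H2-Q7 rose by 0.45 ± 0.14 and 1.34 ± 0.26 (limma adjusted p = 0.0332 and 0.00391; interaction 0.246 and 0.331). Wnt4 fell in activated cells too, with a log2 difference of -1.32 ± 0.29 (limma adjusted p = 0.00637). Greb1 and Car12 were at -0.76 ± 0.43 and -1.14 ± 0.43 there (limma adjusted p = 0.197 and 0.0638), and their interaction did not pass (limma adjusted p = 0.0508 and 0.12). Of the matrix list, 34 of 51 genes rose in activated cells with 6 libraries a group, and the interaction was called for 8 of the 51, against 15.1% of all genes. Col3a1 rose in activated cells by 0.73 ± 0.10 (limma adjusted p = 0.000387) with an interaction that did not pass (limma adjusted p = 0.179).

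**Figure D5:**
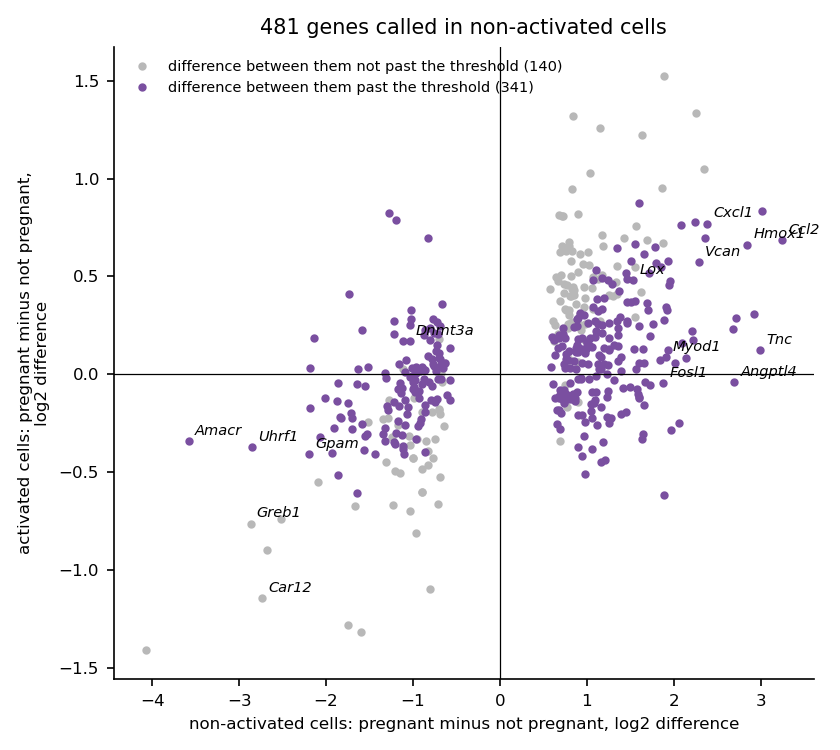
Log2 pregnancy difference (pregnant minus not pregnant) in non-activated cells on the x axis and in activated cells on the y axis for the 481 genes called in non-activated cells and tested in both; 341 genes whose differences differed by the interaction test and 140 that did not pass it are coloured apart. Tnc, Myod1 and Fosl1 lie far along the x axis and near 0 on the y axis, and most points lie between -1 and 1 on the y axis.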

How the data were processed

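RNA-seq of sorted satellite cells was deposited as 1 table of genes by libraries. Per the submitters' processing notes the tools include DESeq2 1.22.1, HTSeq 0.6.0, TopHat2 2.0.14 and cutadapt 1.12, and the build is GRCm38; settings are not given in the sources used here. The raw counts that the authors deposited are whole numbers per gene, and the deposited normalized counts equal them divided by 1 factor per library. Genes without a value, which hold a question mark, and 6 per-sample columns that match no sample listed here were not used. Because the columns hold question marks, their unit was not recorded as counts and limma, as planned, was used rather than a count model. Values were taken as log2(normalized count + 1), genes below a normalized count of 10 in more than 3 of the 6 libraries were left out, and limma 3.58.1 (R 4.3.3) with an intensity trend tested pregnant minus not pregnant over the 6 libraries, without covariates, after a test on simulated counts. Log2 differences are given ± SE and are on the log2(normalized count + 1) scale, which understates the change of low genes. Named genes are the 12 with the largest difference in each direction among calls without overlap and with a mean of at least 50 in the higher group, up to 5 called and 2 other members of each list, a set of anchor genes, the 6 most abundant calls in each direction and the 5 largest interactions in each direction. The lists and genes were chosen with earlier results of these data known. Some genes that the rule or the lists hold are not reported here. Alternatives are given in the closing section. Promoter windows came from a RefSeq table of build GRCm38.p6. Figures used Python 3.11.15, pandas 2.3.3 and matplotlib 3.10.9.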

Additional observations from a re-analysis of the deposited data

Results flagged for a closer look

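The genes below are flagged because their pregnancy difference in non-activated cells differed from that in activated cells by the interaction test of limma (adjusted p below 0.05). Each value is the log2 pregnancy difference in non-activated cells minus that in activated cells, so a positive one means a higher difference in non-activated cells. Injury and library kit cannot be told apart in it, and all but Dnmt3b had also been called in non-activated cells.

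Of the transcription factor and early response genes, the value was 1.83 for Myod1, 1.93 for Fosl1, 1.99 for Ier5, 1.45 for Ier3, 1.06 for Myc, 1.04 for Ets1, 2.04 for En1 and 1.08 for Tgif1. It was 1.81 for Dusp5, 1.19 for Dusp10, 0.89 for Spry2, 0.92 for Errfi1, 1.17 for Plk2 and 0.57 for Eya1. Pax7 had -0.69, Foxo1 -0.94, Dtx4 -0.85 and Tcf7l1 -0.88.

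Inflammatory genes were among the largest, with 2.56 for Ccl2, 2.18 for Tnfaip2, 1.62 for Cxcl1, 1.47 for Ptx3, 0.82 for Nfkbie and 0.73 for Icam1. Interferon-induced genes gave 0.92 for Ifi27 and 0.81 for Parp14, and the STAT5 target Cish gave 1.18.

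Stress and metal genes had 2.19 (Hmox1), 1.52 (Srxn1), 1.29 (Txn1), 1.07 (Sod2), 0.84 (Fth1), 0.75 (Nfe2l2), 1.38 (Mt2), 1.33 (Steap4) and 0.84 (Hsp90aa1). Matrix and growth factor genes had 2.87 (Tnc), 1.72 (Vcan), 1.05 (Lox), 1.16 (Cd44), 1.21 (Plau), 1.38 (Plaur), 0.93 (Igfbp5), 1.20 (Igf2bp2), 1.31 (Gdnf) and 1.69 (Ntn4).

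Metabolic genes went in both directions, with 2.73 for Angptl4, 1.23 for Etfa, 0.78 for Acsl4 and 0.89 for Hsd17b7, and with -1.79 for Gpam, -1.75 for Ppargc1b, -1.04 for Scd2, -1.09 for Elovl5 and -0.85 for Hk1. DNA methylation genes had -1.20 (Dnmt3a), -1.64 (Dnmt3b) and -2.48 (Uhrf1). Of the other genes, Rnd1 had 2.61, Sipa1l2 2.43, Enc1 2.45 and Gm13889 1.67. Amacr had -3.24, BC052040 -2.01, Pde10a -1.66, Cdh13 -1.35, Ror1 -1.31, Sesn1 -0.85 and Depdc5 -0.92.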

How the results depend on the processing

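With 3 libraries a group and a median SE of 0.314 (log2), small differences go undetected. Against 483 called genes, library weights gave 762, the fit of all 18 libraries 2485 and a test beyond 1.5-fold 39 (33 higher, 6 lower). Leaving out single libraries gave 237 to 441 calls, and 1352 to 2301 interaction calls against 1620. Pseudocounts of 0.5 and 8, both filters, total-count scaling, median-of-ratios factors, voom and removal of the span trend gave 462 to 558. With total-count scaling the interaction calls were split 582 higher to 1189 lower, against 778 to 842. Labels share replicate numbers, but the deviations of same-numbered libraries correlated at -0.038, -0.038 and -0.026, so the numbers were not taken as pairs; with the replicate block 568 genes were called, 472 of them among the 483. None of the 124 calls that the text or the naming rule names reversed under any of these alternatives. Of the 124, 94 ended in the test beyond 1.5-fold, 8 without the span trend, 5 with voom and 5 in the fit of all 18 libraries. Only some of these are named below. Named calls ended under total-count scaling for Eya1, Slc11a2, Errfi1, Gbp3, Il1r1 and Nfe2l2, with voom for Enc1, Tmem266, Amacr and Uhrf1, with a pseudocount of 0.5 or a mean of at least 50 for Amacr, Il1r1 and Zfp36, without a filter for Ahnak, Errfi1 and Zfp36, in the fit of all 18 libraries for Socs3, Zbtb16, Ephx1 and Zfp36, with library weights for Fkbp4, and without the span trend for Pax7, Fkbp4, Tcf7l1, Cdh13 and Acly. Jun passed with voom, a pseudocount of 8, a mean of at least 50, total-count scaling, the block, library weights, all 18 libraries or no span trend. The cause of these shifts was not tested.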

Other observations

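A few calls fall outside the groups described so far. Of 29 tested genes of mTORC1 signalling 0 rose and 2 fell, against 1.74% of all tested genes called lower, and the 2 encode inhibitors of that kinase complex. Sesn1, a stress-induced leucine sensor, had 1296, 1172 and 954 normalized counts in the pregnant libraries, against 2005, 1994 and 2356 in the non-pregnant libraries (log2 difference -0.90 ± 0.19, limma adjusted p = 0.0122). Depdc5, a subunit of the GATOR1 complex, had 715, 498 and 703 normalized counts in the pregnant libraries, against 1038, 1430.4 and 1341 in the non-pregnant libraries (log2 difference -1.0 ± 0.23, limma adjusted p = 0.0229). Sesn1 lost its call without non-pregnant library 3 (log2 difference -0.82, adjusted p = 0.0704), and Depdc5 without any one of pregnant library 2 or non-pregnant libraries 2 and 3 (log2 difference -0.95 to -0.83). Plagl1, an imprinted zinc finger factor and the 1 call among 21 tested imprinted growth genes, had 2698, 2410.4 and 2074 normalized counts in the pregnant libraries, against 1222, 1489 and 1282 in the non-pregnant libraries (log2 difference 0.84 ± 0.18, limma adjusted p = 0.0141), and it rose in activated cells too (1.32 ± 0.13, limma adjusted p = 6.87e-05). Its call in non-activated cells was lost without any one of pregnant libraries 1 and 2 or non-pregnant library 3 (log2 difference 0.75 to 0.83). Ror1, a receptor of Wnt5a, had 25972, 17466 and 32689.8 normalized counts in the pregnant libraries, against 53381, 48314 and 48481 in the non-pregnant libraries (log2 difference -1.02 ± 0.21, limma adjusted p = 0.0105), a call lost without pregnant library 2 (log2 difference -0.78, adjusted p = 0.0568). Of 26 tested p53 targets 2 rose and 1 fell, of 19 clock genes 0 rose and 1 fell, and of 17 myofibre genes 0 rose and 1 fell. Over all tested genes the shares were 2.88% higher and 1.74% lower.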
